A study of Mus musculus with 6 samples.

Results

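The genes described here are 10 tubulins and neuronal microtubule-associated proteins: Tuba1a, Tuba1b, Tubb2b, Tubb3, Tubb5, Dcx, Dclk1, Map1b, Map2 and Mapt. The choice was by symbol, with earlier results of these data known. The members make up 10 of the 22651 genes in each table, and all 10 passed the filter on low counts that left 13969 genes for testing. Their RNA was sequenced from telencephalon (cortex, striatum and neighbouring forebrain) of newborn mice, all of postnatal day 0, in 3 animals labelled WT and 3 labelled TSC1. All 6 mice carried the floxed Tsc1 gene on both chromosomes (TSC1 flox/flox). WT mice were Emx1 +/+ and had no Cre, whereas TSC1 mice were Emx1-cre/+, in which Cre is driven by Emx1 and removes a stretch of Tsc1 from cells of the developing dorsal cortex. The telencephalon also includes tissue ventral to the cortex, outside the region where this Cre is expressed. How much of that tissue was taken from each mouse is not given. Tsc1 itself codes for a subunit of the complex that restrains mTOR signaling.

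Microtubules are hollow polymers of alpha- and beta-tubulin dimers, and newborn neurons depend on them to migrate and to extend axons and dendrites. Mammals carry several genes for each subunit, the isotypes, which code for proteins that differ most in the acidic tail at the C-terminus. Doublecortin (Dcx) and doublecortin-like kinase (Dclk1) bind and stabilize microtubules in migrating neurons. Map1b and Mapt, which codes for tau, are found mainly in growing axons, while Map2 marks dendrites and cell bodies.

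The last 60 bases of the coding sequence are shown for the beta-tubulin members Tubb2b, Tubb3 and Tubb5 and for Tubb2a, the closest relative of Tubb2b, because this stretch encodes the tail and shows how far reads of each gene can be told apart. Sequences are 5′ to 3′ on the coding strand, from GENCODE transcripts of GRCm38 that carry the RefSeq accession listed in the tables. Capitals mark bases that differ from Tubb2b, or have no partner in it, in an alignment made by script. Gaps of the alignment are not printed, so the lines are not matched by position.
Tubb2b: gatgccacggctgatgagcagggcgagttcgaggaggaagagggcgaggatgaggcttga
Tubb2a: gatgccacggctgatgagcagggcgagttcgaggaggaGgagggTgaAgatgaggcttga
Tubb3: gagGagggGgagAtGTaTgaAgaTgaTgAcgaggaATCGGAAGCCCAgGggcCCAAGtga
Tubb5: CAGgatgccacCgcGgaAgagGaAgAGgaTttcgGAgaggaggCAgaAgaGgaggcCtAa

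Within these 60 bases Tubb2a differed from Tubb2b at 3, while 28 bases of Tubb3 and 19 of Tubb5 are capitals. These counts leave out bases of Tubb2b that face a gap. With gaps counted, identity to Tubb2b over this stretch was 42.7% for Tubb3 and 65.1% for Tubb5. Over the whole coding sequence, Tuba1a was 98.3% identical to Tuba1b and 97.1% identical to Tuba1c, and Tubb2b was 96.5% identical to Tubb2a. Tubb3 and Tubb5 were 83.6% and 83.9% identical to Tubb2b. Of all 50-base windows of the Tuba1a transcript, 55.5% also occurred in a protein-coding transcript of another gene of the tables, against 67% for Tuba1b and 33.4% for Tubb2b. That share was 0.115% for Tubb5 and 0 for Tubb3, Dcx, Dclk1, Map1b, Map2 and Mapt. The counts followed this split: in all 6 samples the expected counts of Tuba1a, Tuba1b and Tubb2b had a fractional part, which RSEM leaves when it divides reads among genes, and those of the other 7 members were whole numbers. Single values of Tuba1a, Tuba1b and Tubb2b are therefore less certain than the others. Windows were taken from 1 GENCODE transcript a gene, whose length differs from the RefSeq length used by the authors. For Mapt, Dcx and Dclk1 this transcript had 1362, 3120 and 4282 bases, against mean quantified lengths of 5210.2, 9007 and 7146 bases. Sequence of these genes outside that transcript was not checked.

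In GRCm38, the assembly also called mm10, Tuba1a lies on the minus strand of chromosome 15 (98949837 to 98953703), next to Tuba1b (98931425 to 98934565). Tubb2b is on chromosome 13 (34126748 to 34130466), Tubb3 on chromosome 8 (123411424 to 123422015) and Tubb5 on chromosome 17 (35833921 to 35838306). Dcx is on chromosome X (143855842 to 143933311) and Dclk1 on chromosome 3 (55242364 to 55539068). Map1b lies on chromosome 13 (99421446 to 99516540), Map2 on chromosome 1 (66175273 to 66442583) and Mapt on chromosome 11 (104231390 to 104332090). Exons of Tuba1a and Tuba1b share 473 and 426 bases with Gm49450, a protein-coding gene annotated on the same strand. Exons of Tuba1b, Dclk1 and Map2 overlap antisense genes by 87, 87 and 124 bases, and those of Dclk1 overlap a protein-coding gene of the other strand by 27 bases. None of these overlapping genes was found by symbol among the quantified genes. Reads from the stretches shared with Gm49450 cannot be assigned by strand, as both genes lie on the same one. The library kit does not mark strand, so reads from the other stretches cannot be assigned either.

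Total expected counts per sample were between 14119365 and 17772865. Levels are given in TPM, RSEM's length-corrected abundance scaled to a fixed total per sample, and always in the order of replicates 1, 2 and 3. Tsc1, the targeted gene, was at 50.2, 32.0 and 28.4 TPM in WT and at 27.1, 21.7 and 22.4 TPM in TSC1. The Tsc1 groups did not overlap, but the log2 fold change of -0.66 (standard error 0.18) had an edgeR adjusted p of 0.09998. Reads outside the deleted exons and cells without Cre both count toward this gene. Xist, the RNA of the inactive X chromosome, was at 0.48 and 0.66 TPM in replicate 3 of either group and at 442 to 509.9 TPM in the other mice. Neuronal RNA was abundant, with the 12 listed markers of postmitotic neurons summing to 9093 to 9185 TPM in WT and 9439 to 9703 TPM in TSC1.

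Tubulin RNA dominated these samples, and the TPM ranges of each of the 5 tubulin members overlapped between WT and TSC1. Tuba1a was the most abundant transcript of all genes by mean TPM and Tubb2b the next, and Tubb3 and Tubb5 ranked 5 and 7. Together the 10 members took between 4.56% and 4.96% of all TPM in a sample. The 5 tubulin members had fitted values slightly below WT in TSC1, from -0.16 to -0.06 on the log2 scale, and the 5 microtubule-associated members had values above WT, from 0.11 to 0.48. None of the 10 passed the test (edgeR, adjusted p from 0.107 to 0.773), where 1.52% of all tested genes did. In whole tissue, fewer cells of a type and less RNA per cell cannot be told apart.

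**Figure D1:**
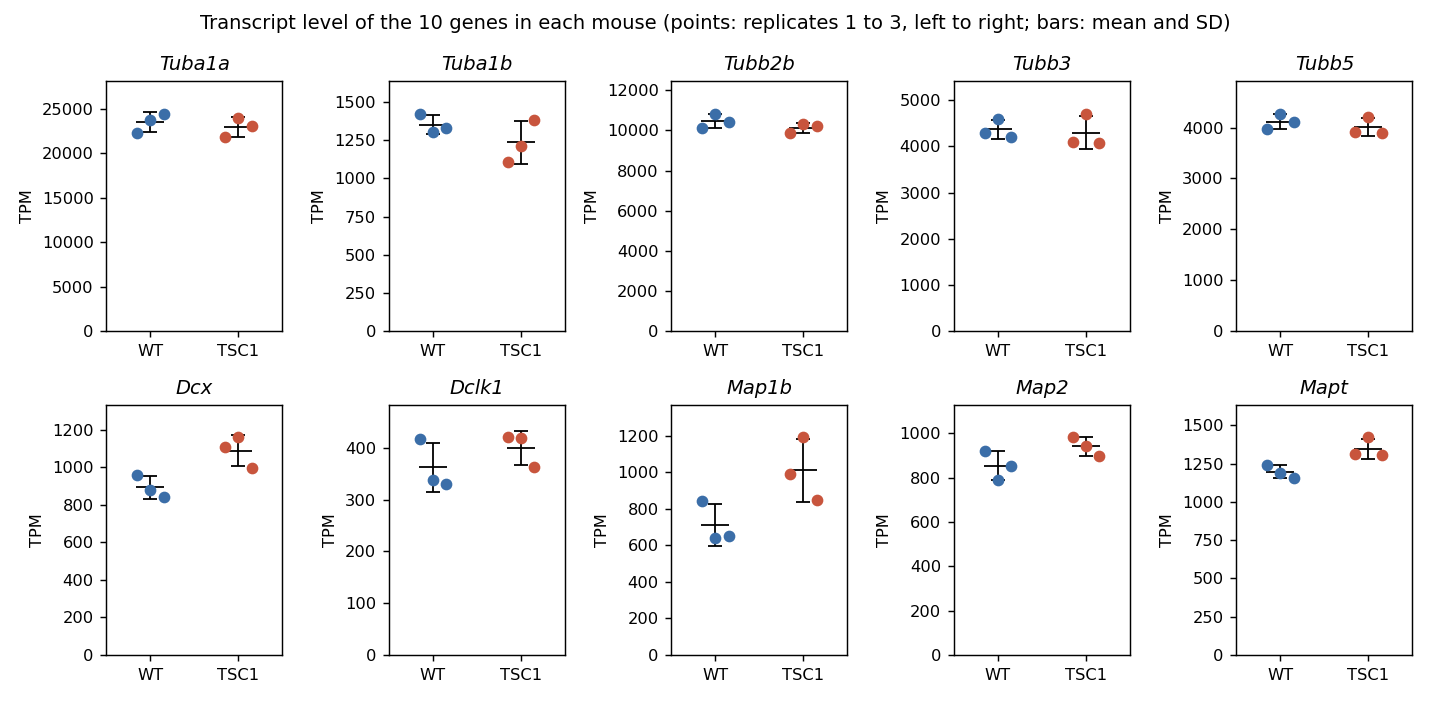
TPM of the 10 genes in each mouse, 1 panel a gene with its own axis from 0, with WT in blue and TSC1 in red and bars for the mean and SD of 3 mice. The tubulin panels overlap between groups, and the 3 TSC1 points of Dcx, Map1b and Mapt lie above all WT points.

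Among the alpha-tubulins, Tuba1a, the main isotype of migrating and differentiating neurons, was at 22283, 23751 and 24477 TPM in WT and at 21823, 23995 and 23081 TPM in TSC1. The groups overlapped over most of their range. The log2 fold change was -0.07 (standard error 0.08, 95% confidence interval -0.26 to 0.12, edgeR adjusted p = 0.717). Tuba1b, an isotype made in most cell types, was far lower, at 1422, 1304 and 1326 TPM in WT and 1107, 1214 and 1384 TPM in TSC1. TSC1 replicates 1 and 2 lay below all WT samples, and TSC1 replicate 3 lay among them. Its log2 fold change was -0.16 (standard error 0.09, interval -0.37 to 0.05, edgeR adjusted p = 0.415).

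Tuba1c, the next alpha-tubulin by level, was at 111, 105 and 104 TPM in WT and at 73.6, 89.6 and 9.72 TPM in TSC1. Its log2 fold change was -0.93 (standard error 0.54, interval -2.14 to 0.29, edgeR adjusted p = 0.407), and it passed the test, as lower in TSC1, when TSC1 replicate 3 was left out. The low value in TSC1 replicate 3 stood beside the highest TSC1 value of Tuba1b, with which Tuba1c shares most of its sequence. Added together, Tuba1b and Tuba1c came to 1533, 1409 and 1429 TPM in WT and to 1180, 1303 and 1394 TPM in TSC1, so the sum did not overlap between the groups, by a margin of 1394 against 1409. The sum was formed after the values were seen and was not tested. Tuba4a was at 54.7, 58.9 and 59.4 TPM in WT and 72.8, 69.5 and 72.2 TPM in TSC1 (log2 fold change 0.28, standard error 0.08, edgeR adjusted p = 0.124).

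Of the beta-tubulins, Tubb2b, a major isotype of the developing brain, was at 10133, 10829 and 10427 TPM in WT and at 9843, 10322 and 10201 TPM in TSC1. Its log2 fold change was -0.08 (standard error 0.07, interval -0.25 to 0.09, edgeR adjusted p = 0.619). Tubb3, the neuron-specific isotype recognised by the TuJ1 antibody, was at 4288, 4596 and 4209.8 TPM in WT and at 4103, 4707 and 4068 TPM in TSC1. The TSC1 mice held both the highest and the lowest Tubb3 value, and the log2 fold change was -0.06 (standard error 0.09, interval -0.25 to 0.14, edgeR adjusted p = 0.773). Tubb5, an isotype of dividing and differentiating cells alike, was at 3969.6, 4273 and 4113 TPM in WT and at 3918, 4207 and 3898 TPM in TSC1. Its groups overlapped as well (log2 fold change -0.07, standard error 0.08, interval -0.24 to 0.10, edgeR adjusted p = 0.673).

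Of the other beta-tubulins tested none passed the edgeR test, and all except Tubb4a were lower in TSC1 by their fitted values. Mean ± SD over 3 mice was 3116 ± 68.1 TPM for Tubb2a in WT against 2917 ± 172 TPM in TSC1, and Tubb4a, an isotype of mature neurons and oligodendrocytes, was at 476 ± 18.1 and 513 ± 41.3 TPM. Tubb4b was at 403 ± 11.4 and 373 ± 15.8 TPM. Tubb6, the least abundant of those tested, had 19.32, 21.28 and 14.97 TPM in WT and 11.65, 14.22 and 15.07 TPM in TSC1 (fitted log2 fold change -0.47, standard error 0.17, edgeR adjusted p = 0.185). Tubb1, Tuba3a, Tuba3b, Tuba8 and Tubal3 were under the filter on low counts.

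Sums over a class depend less on how reads were divided among its genes, although in TPM a read still weighs more in a shorter gene. Over the 8 alpha-tubulin genes, TPM summed to 25019 ± 1062 in WT against 24331 ± 1161 in TSC1 (mean ± SD of 3 mice), a difference of -0.04 on the log2 scale (exact permutation test, two-sided, p = 0.6). The 8 beta-tubulin genes summed to 22960 ± 733 TPM against 22239 ± 863 TPM, a difference of -0.05 (exact permutation test, p = 0.4, where 3 mice against 3 cannot go below 0.1 and so could not have passed). Summed as CPM, which has no length term, the differences were -0.07 for alpha and -0.07 for beta. The ratio of alpha to beta was 1.07, 1.06 and 1.14 in WT and 1.08, 1.10 and 1.11 in TSC1. Both classes were thus present at nearly equal transcript numbers in every mouse.

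The isotype make-up was also alike from mouse to mouse. Tuba1a supplied between 93.3% and 94.6% of alpha-tubulin TPM, and Tuba1b between 4.78% and 5.96%. Among beta-tubulins Tubb2b supplied 44.6% to 46.1%, Tubb3 18.4% to 20.3%, Tubb5 17.6% to 18.3% and Tubb2a 12.7% to 13.9%. For each of these 6 isotypes the WT and TSC1 ranges overlapped. They did not for 4 minor isotypes, whereas those of Tubb6, the other minor isotype tested, overlapped. Shares within a class move together, and no background was computed for them. For single genes on CPM, an unlike measure, 10.9% of all tested genes were higher in TSC1 without overlap and 11.7% were lower. Tubb4a supplied 1.93% to 2.21% in WT against 2.22% to 2.42% in TSC1, by a margin of 2.214% against 2.217%. Tubb4b supplied 1.70% to 1.81% in WT against 1.66% to 1.68% in TSC1. Tuba1c, which shares most of its sequence with Tuba1b, supplied 0.399% to 0.463% in WT and 0.0396% to 0.353% in TSC1. Tuba4a supplied 0.229% to 0.234% in WT and 0.274% to 0.316% in TSC1.

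**Figure D2:**
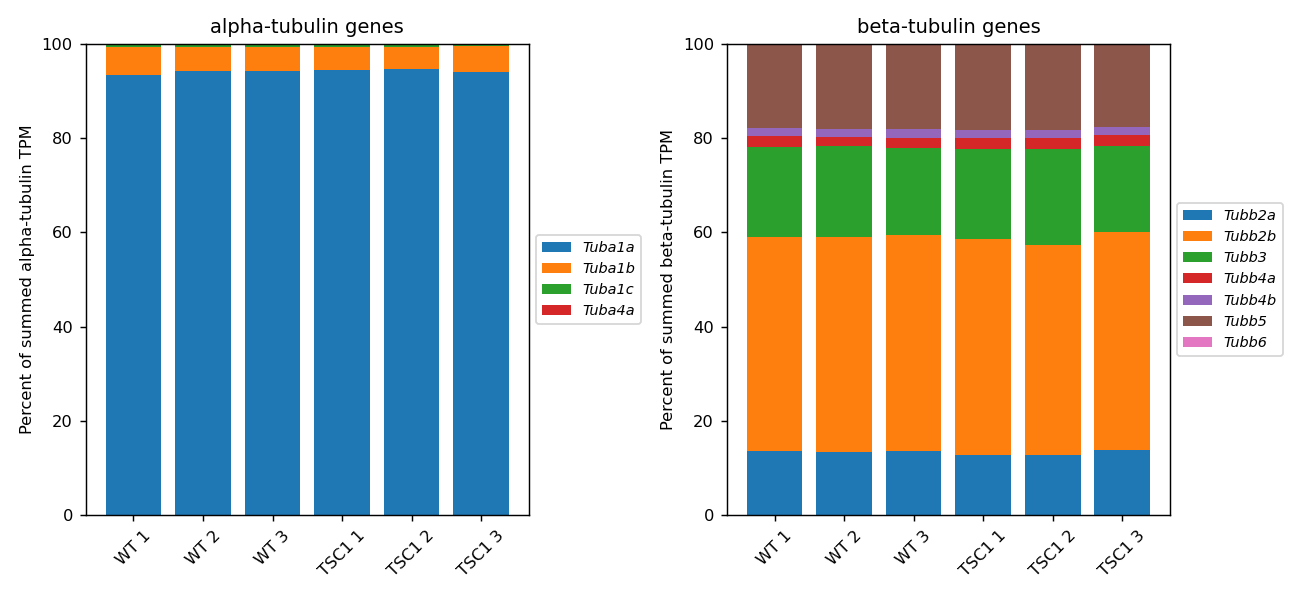
Share of each isotype in the summed alpha-tubulin TPM (left) and beta-tubulin TPM (right) of each mouse, in percent, as stacked bars for WT and TSC1 replicates 1 to 3. Tuba1a fills 93.3% to 94.6% of every alpha bar, and Tubb2b is the widest band of every beta bar.

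The microtubule-associated members sat well below Tuba1a, Tubb2b, Tubb3 and Tubb5 on the TPM scale, and all 5 had higher mean TPM in TSC1. Map1b, which binds growing axonal microtubules and is made early in neuronal differentiation, had the largest difference of the 10. Its TPM was 844.0, 640.2 and 652 in WT, compared with 990.2, 1190.4 and 847.1 in TSC1. All TSC1 values lay above all WT values, but TSC1 replicate 3 lay above WT replicate 1 by little. Expected counts were 57826, 49819 and 40993 in WT and 62977, 72074 and 58576 in TSC1, so counting error is small beside the spread between mice. The fitted log2 fold change was 0.48 (standard error 0.13, interval 0.18 to 0.78), or 1.40-fold, with an unadjusted edgeR p of 0.00553 and an adjusted p of 0.107. The call depended on the test and on a single mouse: DESeq2 on the same counts gave an adjusted p of 0.00511, and edgeR without TSC1 replicate 3 gave a log2 fold change of 0.58 and an adjusted p of 0.0303, in a fit where 5.68% of all tested genes passed. Without TSC1 replicate 2 the log2 fold change was 0.34 (edgeR adjusted p = 0.336).

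Dcx, the microtubule-binding protein of migrating neuroblasts, was at 958, 878 and 838 TPM in WT and at 1107, 1158 and 997 TPM in TSC1, with no overlap between groups. The means were 891 ± 61.1 TPM for WT and 1087 ± 82.5 TPM for TSC1 (± SD over 3 mice). Its gene is X-linked, and without replicate 3 of both groups, the mice without Xist, the log2 fold change was 0.29 (edgeR adjusted p = 0.137). Its log2 fold change was 0.26 (standard error 0.08, interval 0.09 to 0.44), or 1.2-fold, and its unadjusted edgeR p was 0.00778, with an adjusted p of 0.123. DESeq2 gave an adjusted p of 0.0256 for it. Both Dcx and Map1b thus passed in DESeq2, where 4.55% of all tested genes did, and Dcx passed in the edgeR fit with a replicate block, where 3.94% did.

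Dclk1, the paralog of Dcx that adds a kinase domain in its longer forms, was at 418, 338 and 331 TPM in WT and at 421, 419 and 363 TPM in TSC1. WT replicate 1 lay among the TSC1 mice, and the log2 fold change was 0.15 (standard error 0.09, interval -0.07 to 0.36, edgeR adjusted p = 0.448). Map2 has 2 listed transcripts, with coding sequences of 1404 and 1497 bases in GENCODE, and other forms were not quantified separately. It was at 920.4, 789.6 and 852 TPM in WT and at 982, 945 and 898 TPM in TSC1. These ranges overlapped through WT replicate 1 (log2 fold change 0.11, standard error 0.07, interval -0.05 to 0.28, edgeR adjusted p = 0.445). Mapt was at 1244, 1191 and 1158 TPM in WT and at 1313, 1422 and 1303 TPM in TSC1. Its groups did not overlap, and the log2 fold change was 0.14 (standard error 0.07, interval -0.02 to 0.30, edgeR adjusted p = 0.327).

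**Figure D3:**
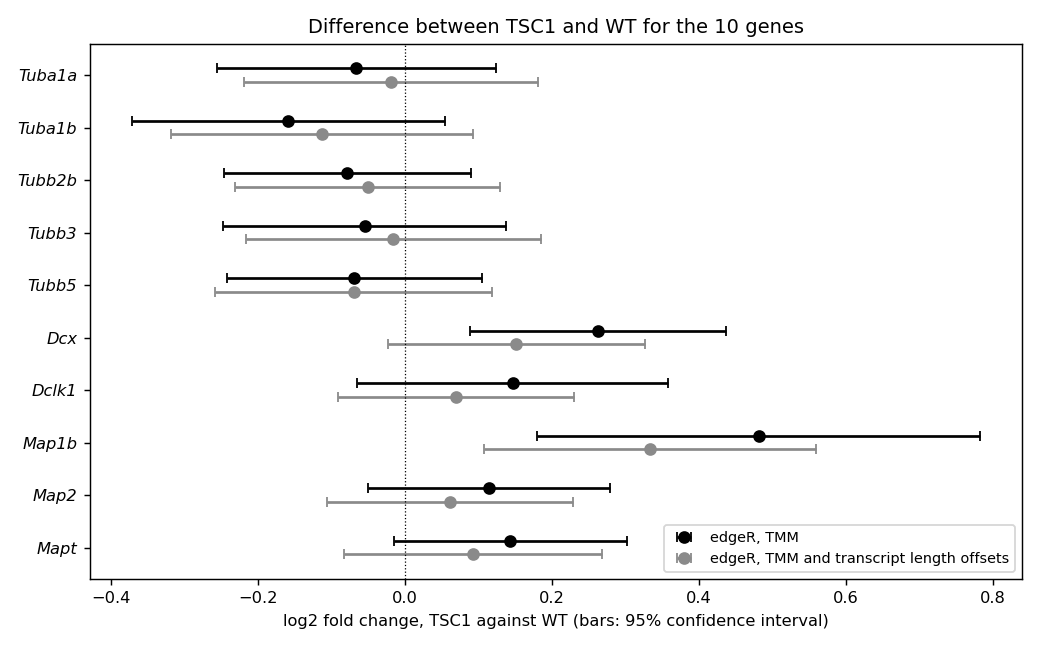
Log2 fold change of each of the 10 genes in TSC1 against WT, with its 95% confidence interval, from the edgeR fit (black) and from a fit with added offsets for transcript length (grey). The black intervals of Dcx and Map1b lie above 0, and with the offsets that of Map1b alone does so.

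Counted together, 2 of the 10 members, Map1b and Dcx, had an unadjusted edgeR p below 0.05 with a higher value in TSC1, and none had one with a lower value. Over all tested genes 9.04% had such a p and were higher in TSC1, and 8.93% were lower. On CPM, counts scaled by TMM library sizes, 4 of 10 members were higher in TSC1 without overlap, namely Dcx, Map1b, Map2 and Mapt, against 10.9% of all tested genes, and none was lower without overlap, against 11.7%. On TPM the count was 3, without Map2, against 12.3%. The median log2 fold change of the members was 0.03, and that of all tested genes was -0.003 (-0.00267). The members were chosen with earlier results of these data known, so these counts beside the shares of all genes are description and not a test.

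By mean TPM the order was Tuba1a, Tubb2b, Tubb3, Tubb5, Tuba1b, Mapt, Dcx, Map2, Map1b and Dclk1. Tubb3 exceeded Tubb5 in each of the 6 mice, although the ranges of both genes over the mice overlapped. From Tuba1b down to Map1b, the range of each gene overlapped that of its neighbour in this order. The range of Tuba1a lay wholly above that of Tubb2b, that of Tubb2b above Tubb3, and Dclk1 was below every other member in every mouse. The 5 microtubule-associated members summed to 4385, 3836 and 3831 TPM in WT and 4812, 5134 and 4408 TPM in TSC1. For every 1000 TPM of the 5 tubulin members there were 104, 85.7 and 86.0 TPM of microtubule-associated members in WT and 118, 115.5 and 103 TPM in TSC1. These ratios overlap only through WT replicate 1 and TSC1 replicate 3, and they were formed after the values were seen and not tested.

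Transcript length moved with this contrast. Tubulin transcripts in the tables are 1562 to 2645 bases long, whereas Mapt, Map2, Dclk1, Dcx and Map1b average 5210.2, 5429, 7146, 9007 and 11852 bases. Over all tested genes the median log2 fold change was -0.12 for 887 genes under 1000 bases, -0.05 for 3051 genes of 1000 to 2000 bases, 0.04 for 3507 genes of 4000 to 8000 bases and 0.13 for 588 genes of 8000 bases or more. In that longest class, 74.1% of genes were higher in TSC1. By sample, the longest class deviated from the gene means by a median of 0.08, -0.14 and -0.14 log2 units for the WT mice and by 0.13, 0.12 and -0.04 for the TSC1 mice. WT replicate 1 and TSC1 replicate 3 stand nearest to the other group on this axis, as they do in TPM for all 5 microtubule-associated members, Dcx and Map1b included.

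**Figure D4:**
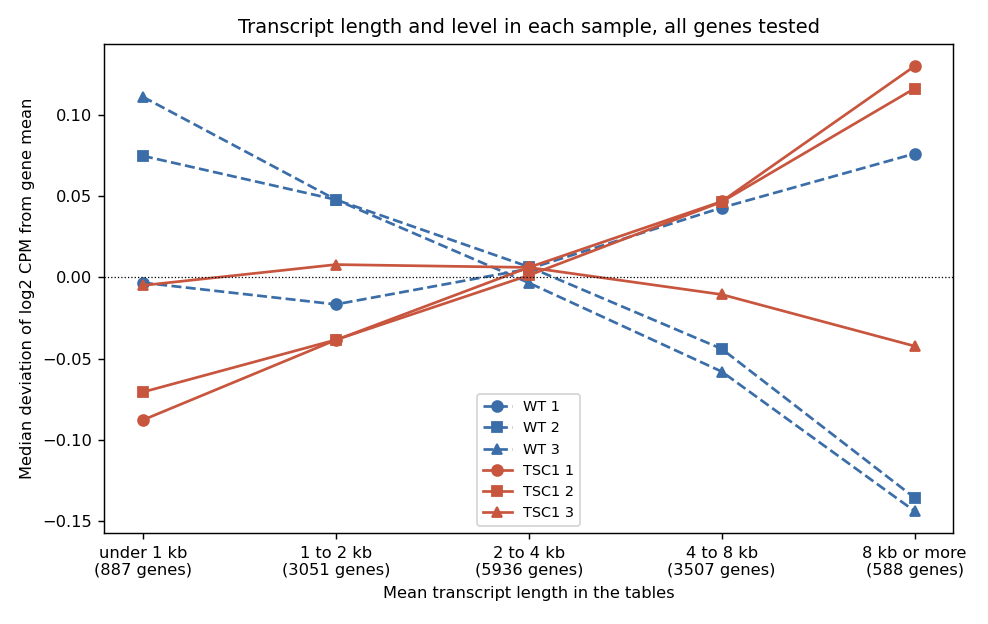
Median deviation of log2 CPM from the gene mean, in 5 classes of transcript length over all 13969 tested genes, for each WT (blue, dashed) and TSC1 (red) replicate. The samples fan out with length: in the longest class WT replicates 2 and 3 lie at -0.14, TSC1 replicate 3 at -0.04, WT replicate 1 at 0.08 and TSC1 replicates 1 and 2 at 0.12 to 0.13.

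A fit with offsets that remove this trend from each sample, chosen after seeing the data, gave Map1b a log2 fold change of 0.33 (standard error 0.10, interval 0.11 to 0.56, edgeR adjusted p = 0.127). Dcx became 0.15 (standard error 0.08, interval -0.02 to 0.33, edgeR adjusted p = 0.354), which is lower by over 1.5 times. Dclk1, Map2 and Mapt came to 0.07, 0.06 and 0.09, and the tubulin members to between -0.11 and -0.02. Every member kept its direction, and none passed the test, where 1.63% of all tested genes did. RSEM also modelled shorter fragments in WT (46.8 to 50.7 bases) than in TSC1 (56.1 to 58.6 bases). This difference cannot be told apart from genotype. All these modelled lengths are below the length of the reads before trimming, and no reason for this is given. Whether they are the true fragment lengths of the libraries was not tested. With effective lengths as offsets Map1b stayed at 0.48 and Dcx at 0.26.

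The length column of an RSEM table is the mean over the transcripts of a gene, weighted by their abundance, and so reads out which transcripts were present without using their total. It is fixed for Map1b and the tubulins, which have a single transcript in the tables. Dclk1 has 7 listed transcripts, which in GENCODE run from 4282 to 7962 bases, and the 2 longest encode the forms with the longest coding sequence (2220 and 2271 bases). Its mean length was 7120.4, 7093 and 7040.5 bases in WT and 7194, 7239.7 and 7187 bases in TSC1. All TSC1 mice lay above all WT mice, a difference of 122 bases. The exact permutation test, two-sided, gave p = 0.1, the smallest that 3 against 3 allow, and 0.4 after adjustment over 4 genes. WT replicate 1 and TSC1 replicate 3 were again nearest to the other group, as in the longest class of transcripts over all genes. Whether the Dclk1 difference is part of that trend was not tested. The lengths of Dcx, Map2 and Mapt differed between group means by 1.68, 0.05 and -0.08 bases (exact permutation test, p = 0.3, 0.9 and 0.8).

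The other genes of microtubule biology are given by list. Over 174 tested genes of the lists, members included, 2 passed the test, both higher in TSC1, where 0.859% of all tested genes were. Dync1h1, the heavy chain of the dynein motor that moves cargo toward microtubule minus ends, rose from 214, 178 and 188 TPM in WT to 284, 282 and 242 TPM in TSC1, with no overlap (log2 fold change 0.45, standard error 0.08, edgeR adjusted p = 0.0416). Kif3b, a subunit of kinesin-2, rose from 124, 122 and 127 TPM to 155, 156 and 160.2 TPM (log2 fold change 0.31, standard error 0.06, edgeR adjusted p = 0.0479). Both calls were lost with the transcript length offsets (edgeR adjusted p = 0.108 and 0.132), under which the log2 fold change of Dync1h1 was 0.27 and that of Kif3b 0.25. Kif3b also lost its call without WT replicate 1, 2 or 3 or TSC1 replicate 1 or 2, and Dync1h1 without WT replicate 2 or 3 or TSC1 replicate 1 or 2. With 1 sample left out the log2 fold changes themselves ran from 0.29 to 0.35 for Kif3b and from 0.40 to 0.51 for Dync1h1.

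By group, values leaned to opposite sides, while over all tested genes 6890 of 13969 were higher in TSC1. That share rose with transcript length, from 28.2% of genes under 1000 bases to 74.1% of genes of 8000 bases or more. The part of transcript length in the leaning of the lists was not tested. Of 17 tested transport kinesins 16 were higher in TSC1, with a median of 0.12, and Klc1, the most abundant, had 0.12 (edgeR adjusted p = 0.364). Among 20 proteins that bind microtubule ends 18 were higher, with a median of 0.15, led in abundance by Clip3 at 0.36 (edgeR adjusted p = 0.0683). The 14 structural microtubule-associated proteins tested had a median of 0.12, and Map1lc3b, the most abundant besides the members, had 0.07 (edgeR adjusted p = 0.633). In contrast 14 of 19 tubulin folding genes and 14 of 20 nucleation genes were lower, with medians of -0.08 and -0.06. Cct6a of the chaperonin that folds tubulin had -0.06 (edgeR adjusted p = 0.628), and Mzt1 of the gamma-tubulin ring complex had -0.13 (edgeR adjusted p = 0.309).

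The alpha- and beta-tubulin lists had medians of -0.11 and -0.08, and the remaining lists had medians between -0.09 and 0.06. The 5 tested doublecortin family genes had a median of -0.09, and Dclk2 was at 126, 130.5 and 130 TPM in WT and 126, 122 and 121 TPM in TSC1 (edgeR adjusted p = 0.450). Stathmins, which sequester tubulin dimers, had a median of 0.06 over 4 genes, with Stmn1 at -0.09 (edgeR adjusted p = 0.582). Dynein and dynactin genes had a median of 0.05 over 21, with Dynlrb1 at -0.12 (edgeR adjusted p = 0.469). Severing genes had -0.08 over 7, with Spast at 0.01 (edgeR adjusted p = 0.974), tubulin modifying enzymes 0.03 over 20, with Atat1 at 0.08 (edgeR adjusted p = 0.628), and kinases 0.05 over 16, with Cdk5r1 at -0.15 (edgeR adjusted p = 0.429). Arl2, Pfdn6, Map7d3, Klc2, Svbp and Mark2 were not matched by symbol and are not analysed here.

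**Figure D5:**
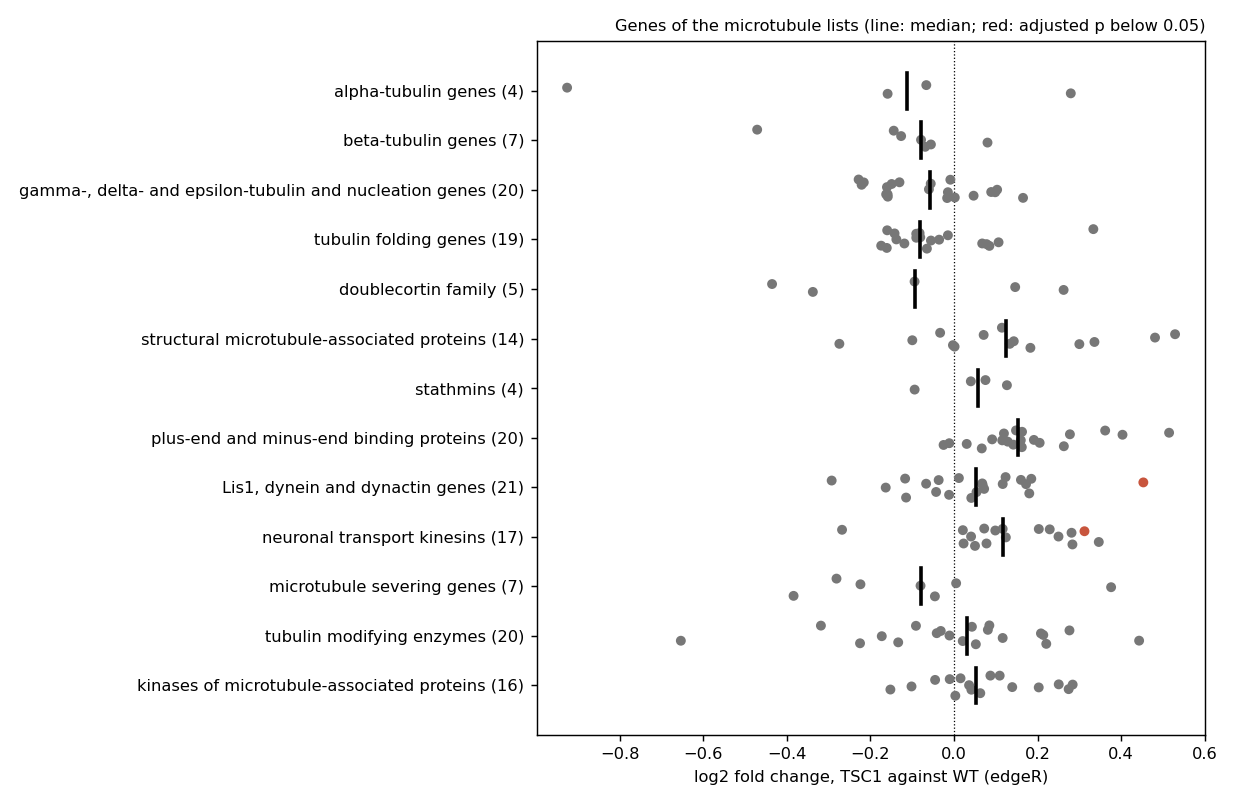
Log2 fold change of each tested gene of the microtubule lists in TSC1 against WT, 1 row a list with the number tested in brackets, the median as a black line and genes with an edgeR adjusted p below 0.05 in red. The 2 red points are Dync1h1 at 0.45 and Kif3b at 0.31, and the medians run from -0.11 for alpha-tubulins to 0.15 for proteins of microtubule ends.

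Markers of several cell populations moved with the same contrast. All 8 inhibitory neuron markers were lower in TSC1 without overlap, with 5 past the edgeR test against 0.659% of all tested genes, and they summed to 468 to 537 TPM in WT and 264 to 355 TPM in TSC1. The 8 tested striatal markers were likewise lower without overlap, with 1 past the test (Foxp2), and summed to 307 to 430 TPM in WT and 89.3 to 239 TPM in TSC1. Choroid plexus markers summed to 1170 to 2461 TPM in WT and 30.02 to 862 TPM in TSC1, and none of the 5 passed the edgeR test. TSC1 mice differed among themselves: in replicates 1, 2 and 3, striatal Drd2 was at 0.75, 1.05 and 4.12 TPM. Choroid plexus Ttr was at 23.9, 102 and 843 TPM in the same mice. The part of uneven dissection in these values was not tested. The sums of red blood cell markers overlapped between groups, at 1694 to 5566 TPM in WT and 1291 to 1783 TPM in TSC1. None of the 4 tested passed the edgeR test, and Hbb-b2 was at 0 in all samples. WT replicate 3 stood apart, with Hba-a1 at 1240, 1688 and 4554 TPM in the WT mice.

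Markers of excitatory and other postmitotic neurons leaned the other way. Of 12 tested markers of postmitotic neurons 9 were higher, with a median of 0.07, and Nefl, a neurofilament subunit, passed the test at 0.38 (edgeR adjusted p = 0.0479). Dorsal telencephalon neuron markers had a median of 0.16 over 9, none of which passed the edgeR test. For progenitors, astrocytes, oligodendrocyte lineage, microglia and vessels the medians were -0.19, -0.05, -0.12, -0.16 and -0.40. Among these lists, Sox2 of the progenitors was lower and Gfap of the astrocytes was higher past the edgeR test, where 1.52% of all tested genes passed. Of the 12 progenitor markers 11 were lower. The astrocyte markers were mixed, with 3 higher and 4 lower, and Gja1 had -0.69 (edgeR adjusted p = 0.130). The part of cell make-up, and of transcript length, in the members' values was not tested beyond the fits given.

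Genes with the profile most like a member over the 6 samples were found by the root mean square difference of centred log2 CPM. For Dcx these were Ralgps2, Fam49a and Phf23 at 0.01, 0.02 and 0.02 log2 units. For Tuba1a, Ndufs3, Pfn4 and Hcn3 lay at 0.02 each. These genes were picked from 13969 for their likeness, so the closeness itself is not a result.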

How the data were processed

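Reads were 101-base pairs from TruSeq libraries, which the authors trimmed, aligned to mm10 with MapSplice2 and quantified with RSEM 1.2.12 on RefSeq transcripts. The deposited expected counts are RSEM's estimated counts and carry no normalization. The deposited TPM and FPKM values were scaled by RSEM for effective length and sample total. Each sample is a separate mouse, and groups and replicate numbers came from the titles. With 3 counts as the floor, 0.169 to 0.212 CPM could be detected.

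Expected counts were rounded and fitted over the whole table with edgeR 4.0.16 (R 4.3.3; TMM, filterByExpr, quasi-likelihood test, Benjamini-Hochberg). Intervals are 95% from that fit. DESeq2 1.42.0 and limma 3.58.1 on log2(TPM + 1) were alternatives. The study's own statistic with permuted nulls was not used. Sequences were aligned with Biopython 1.88. Scripts were tested on simulated data. All pairs of a group differed by more than sampling noise (chi-square per degree of freedom 5.68 to 17.4).

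Named genes are the members, list genes past the test, the most abundant non-member of each list, the other tested tubulins, the 3 nearest profiles of Map1b (not reported here), Tuba1a and Dcx, and Tsc1; markers named beside cell types were chosen after their values were seen. Members and lists were chosen with earlier results of these data known.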

Additional observations from a re-analysis of the deposited data

How the results depend on the processing

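The 10 members kept their direction under all 17 alternatives, but sizes moved: with 1 sample left out, Dclk1 ran from 0.10 (without WT replicate 2 or 3 or TSC1 replicate 2) to 0.24 (without WT replicate 1), Map2 from 0.06 (without WT replicate 2) to 0.15, and Tuba1b from -0.26 (without TSC1 replicate 3, edgeR adjusted p = 0.0943) to -0.07 (without TSC1 replicate 1). No member passed in edgeR with all samples (2 had an unadjusted p below 0.05); DESeq2 called 2 (Dcx and Map1b), the edgeR fit with a replicate block called 1 (Dcx, adjusted p = 0.0472), and fits that left out 1 sample called 0 to 1 (Map1b without TSC1 replicate 3). The titles' numbers were not shown to pair the mice: same-numbered deviations correlated at 0.301, -0.150 and 0.362. Adjusted p over the alternatives ran from 0.00511 to 0.353 for Map1b and from 0.0256 to 0.406 for Dcx.

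Of all microtubule genes, 2 were called, against 1 with RLE or upper quartile factors, 4 with no filter, 15 in DESeq2, 11 with the replicate block, 1 (Dst) with transcript length offsets and 0 in limma with either pseudocount (31 and 30 at an unadjusted p below 0.05), and 0 to 12 with 1 sample left out. Without WT replicate 1 there were 6, without TSC1 replicate 3 there were 12 (11 higher, and Tuba1c lower), and without WT replicate 2 or 3 or TSC1 replicate 1 or 2 there were 0 (22, 26, 35 and 26 at an unadjusted p below 0.05, in edgeR). Over all genes, 212 were called, against 346 with no filter, 636 in DESeq2, 551 with the replicate block, 21 and 16 in limma with pseudocounts of 1 and 0.1, 434 without replicate 3 of both groups and 29 to 799 with 1 sample left out. Leaving out samples leaves fewer mice in a fit, yet calls over all genes rose to 447 without WT replicate 1 and to 799 without TSC1 replicate 3. The causes of these shifts were not tested.

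With 1 sample left out the tubulin sums stayed below WT (-0.07 to -0.003 (-0.00285) for alpha, -0.08 to -0.02 for beta). Against -0.04 and -0.05 in TPM, they were -0.09 and -0.10 in FPKM and -0.07 and -0.07 in summed CPM. The Dclk1 length difference was 100.4 to 140.3 bases with 1 sample left out. Effective length turned the length differences of Dcx to -6.55 and of Map2 to -8.17 bases, since RSEM subtracts a longer modelled fragment in TSC1. Leaving out WT replicate 3 or TSC1 replicate 1 turned Map2 to -0.188 and -0.258 bases (range -0.258 to 0.387), and leaving out WT replicate 2 turned Mapt to 0.065 bases (range -0.2 to 0.065). A replicate block cannot change these sum and length differences, since the mean of same-numbered differences equals the difference of group means, so it was no check of them.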
